A study of Mus musculus with 12 samples.

Results

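The genes that build and load the autophagosome were followed in mouse peritoneal macrophages that were activated with lipopolysaccharide and interferon gamma, with or without the plant anthraquinone emodin. The set holds 38 genes chosen by name for their known place in the pathway, and a probe of the array was matched to each of them through its RefSeq accession. Of the 38 genes, 37 were tested, out of 13168 genes tested in all. The remaining gene, Atg4a, was well above background on 1 of 12 arrays, an LPS_IFNg array, and was not tested. All 37 tested members were well above background on all 12 arrays.

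Autophagy encloses part of the cytoplasm in a new membrane and delivers it to the lysosome. The ULK kinase complex starts the process, a class III phosphatidylinositol 3-kinase (PI3-kinase) complex marks the membrane, and WIPI, ATG2 and ATG9 proteins supply and shape it. A set of enzymes that act like those of ubiquitin conjugation then attaches the LC3 and GABARAP proteins to the membrane, where cargo receptors bind them and bring in the material to be degraded. In macrophages the same machinery is known for clearing intracellular microbes and damaged mitochondria and for restraining inflammasome activity.

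The study used wild-type C57BL/6 mice and 12 one-colour arrays, 4 in each of 3 groups, which the design text describes as biological replicates. Control cells received vehicle, LPS_IFNg cells received LPS (100 ng/ml, a bacterial cell wall component) and interferon gamma (20 ng/ml), and LPS_IFNg_emodin cells received both and emodin (50 μM), all for 20 h. Every group had been through adherence, washing and a night without serum before treatment, and the series title concerns the effect of emodin on classical activation. Control mice are labelled as 8 weeks old, 2 female and 2 male, and the mice of both stimulated groups as 9 weeks old and female, so age cannot be told apart from stimulation in a comparison with control. No label ties an array to 1 animal. The spread that the p-values rest on is therefore that of these samples, and may be partly technical.

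The control arrays were on 1 slide and the 8 stimulated arrays on another, so slide and stimulation cannot be told apart either, while the emodin comparison lies within 1 slide, with each group in a row of its own. By their tissue label the cells are peritoneal macrophages, whereas the series' design text speaks of polymorphonuclear blood leukocytes. Of 9 named macrophage markers, 9 were well above background on every control and LPS_IFNg array and 8 on every LPS_IFNg_emodin array, where Timd4 was not. Of 9 named neutrophil markers, Ngp was well above background on 0 of 12 arrays, while Camp, Elane, Mmp8 and S100a8 were on all 12. Cxcr2 was above background on 3 control arrays and on 0 of 8 stimulated arrays. S100a9 was so on 4 control, 0 LPS_IFNg and 3 LPS_IFNg_emodin arrays. In the same order Ltf was so on 4, 0 and 2 arrays, and Mpo on 2, 0 and 4. Each control array had 7 to 8 of the 9 above background. Replicate 3 of both stimulated groups is labelled female, but had signal for the Y-linked genes Ddx3y and Eif2s3y and lacked that of Xist seen on all other arrays. Control replicates 3 and 4 are labelled male, but had Xist signal and lacked that of the Y-linked genes. Calls of members that change without these arrays are given with the gene.

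Levels are log2 signals relative to the 75th percentile of the same array, so 0 is that percentile and 1 unit is 2-fold; they compare arrays for a gene and not genes with each other. Changes are differences between group means of these levels, with the standard error (SE) of the model fit over 12 arrays, and a gene counts as called where its p, adjusted by the method of Benjamini and Hochberg, is under 0.05. The 75th percentile of the signal lay between 370 and 466 on the LPS_IFNg_emodin arrays, against 637 to 795 on the LPS_IFNg arrays and 633 to 810 on the control arrays. The mean log2 signal of 8 spike-in RNAs, control transcripts from outside the mouse that are read by their own probes, was 12.31 to 12.54 on the LPS_IFNg_emodin and 12.38 to 12.52 on the LPS_IFNg arrays. A rise or fall with emodin below is thus a change relative to the other genes of the same array, and values scaled to the spike-ins are given for each of the 37 members with emodin in the plot of both scalings. The spike-ins themselves lay at 9.74 to 10.13 on the slide of the controls, so that scaling was not used for comparisons with control.

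Activation alone moved a part of the pathway, in both directions. Of the 37 tested members 10 rose and 9 fell with LPS and interferon gamma, which is 51.4%, while 69% of all genes tested were called (33.8% up and 35.2% down). The 4 arrays of one group did not overlap with those of the other for 19 members, and for 64.3% of all genes. The median change was -0.027 for the members and -0.039 for all genes, and the median size of a change, without its sign, was 0.29 and 0.51. The cargo receptor Sqstm1 and the conjugation scaffold Atg16l1 rose at least 2-fold, and the cargo receptor Calcoco1 and the LC3 family member Map1lc3a fell at least 2-fold, a size of change that 26.3% of all genes were called with. How many members fell depended on the scaling: 16 were called down with quantile normalization and with the deposited value table, and 15 with the percentile taken over detected probes, with 10 called up in each, while normexp background correction gave 14 up and 10 down.

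With emodin most members were called, as were most genes of the array, and the called members mainly rose relative to other genes. Of the 37 members 22 rose and 8 fell in LPS_IFNg_emodin against LPS_IFNg, which is 81.1%, while 71.8% of all genes were called (35.1% up and 36.8% down). Groups did not overlap for 28 members, and for 67.5% of all genes. At least 2-fold were 8 of the rises and 1 of the falls, against 26.5% of all genes in either direction. The median change was 0.36 for the members and -0.0070 for all genes. Scaled to the spike-ins, the median of all genes was -0.71 and that of the members -0.34, 8.6% of all genes and 6 members rose, and 66.6% of all genes and 18 members fell. The 6 that rose under both scalings were Optn, Nbr1, Ulk1, Calcoco1, Atg14 and Atg12, and 8 members fell under both. Without replicate 3 of both stimulated groups, 22 members rose and 7 fell.

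**Figure D1:**
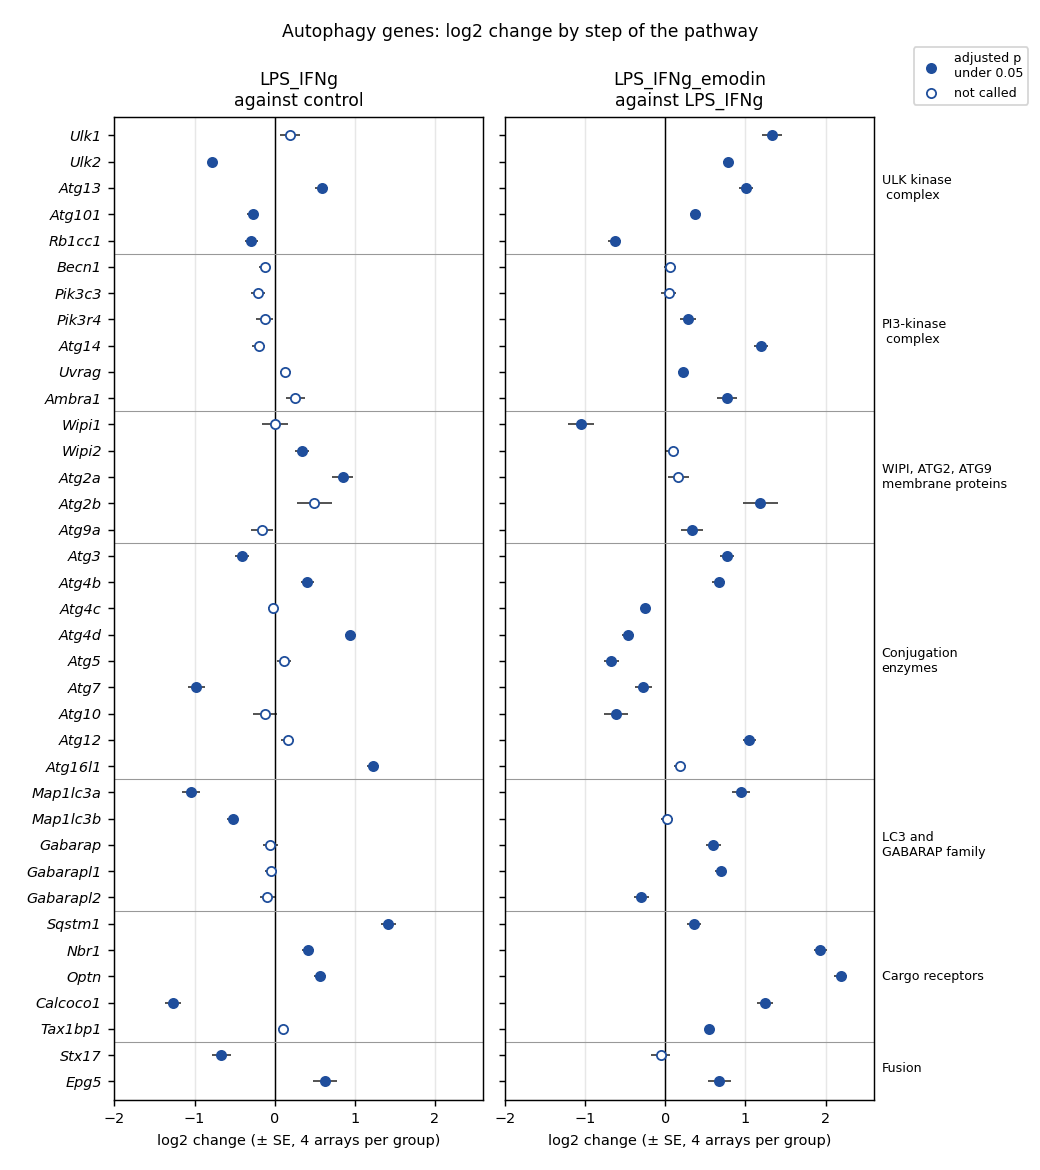
Log2 change of each tested autophagy gene in LPS_IFNg against control (left) and LPS_IFNg_emodin against LPS_IFNg (right), scaled to the 75th percentile of each array, with the SE of the fit over 4 arrays per group; filled points have a limma adjusted p under 0.05. Points scatter on both sides of 0 on the left, and on the right all 5 cargo receptors lie above 0 while 5 of 9 conjugation enzymes lie below it and are called; scaled to the spike-ins, 3 of the 5 cargo receptors still rose and 1 fell.

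The counts given by group of genes from here on stand beside these shares over all genes. With activation 33.8% rose and 35.2% fell, and with emodin 35.1% rose and 36.8% fell. With emodin scaled to the spike-ins 8.6% rose and 66.6% fell. The ULK kinase complex receives nutrient and energy signals. With activation 1 of its 5 genes rose, Atg13, and 3 fell, Ulk2, Atg101 and Rb1cc1. With emodin 4 of 5 rose and Rb1cc1 fell, and scaled to the spike-ins only Ulk1 rose while Atg101 and Rb1cc1 fell.

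Ulk1, the kinase of the complex, lay at 3.32, 3.24, 3.59 and 3.85 on control replicates 1 to 4, at 3.56, 3.77, 3.84 and 3.58 on the LPS_IFNg arrays and at 5.04, 5.09, 4.96 and 5.0 on the LPS_IFNg_emodin arrays. The emodin arrays stood above all others, and the other groups overlapped. The change with emodin was 1.33 ± 0.12 (2.52-fold, adjusted p = 1.59e-06), and 0.63 ± 0.15 scaled to the spike-ins (adjusted p = 0.00255). With activation the change was 0.19 ± 0.12 (adjusted p = 0.194), and it was called without control replicate 4 (0.31, adjusted p = 0.0192) and without the control arrays labelled male (0.41, adjusted p = 0.00358).

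Atg13, the regulatory subunit through which the kinase is held in check, lay at 4.85, 4.80, 5.11 and 4.95 on the control arrays, at 5.45, 5.64, 5.54 and 5.43 on the LPS_IFNg arrays and at 6.48, 6.57, 6.61 and 6.44 with emodin. The 3 groups did not overlap, each step being upward. It rose by 0.59 ± 0.083 with activation (adjusted p = 5.26e-05) and by a further 1.01 ± 0.083 with emodin (adjusted p = 5.42e-07), and scaled to the spike-ins the emodin change was 0.31 ± 0.14 and not called (adjusted p = 0.0655). Ulk2, a second kinase of this family, fell by 0.78 on the log2 scale with activation (SE 0.053) and rose by 0.78 with emodin (0.078 and not called when scaled to the spike-ins), to a mean of 1.93 on the emodin arrays against 1.93 on the control arrays. A second kept probe of Ulk2 fell by 0.69 with activation and changed by -0.026 with emodin (adjusted p = 0.79), so the probes of this gene disagreed on emodin.

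Atg101, which stabilises Atg13, fell by 0.28 on the log2 scale with activation and rose by 0.37 ± 0.068 with emodin, and scaled to the spike-ins it changed by -0.33. Rb1cc1, the large scaffold also known as FIP200, fell by 0.29 and then by 0.63 on the log2 scale, but its other kept probe changed by 0.20 (adjusted p = 0.0669) and rose by 0.39 ± 0.090 (adjusted p = 0.00209). Its direction therefore rested on the probe used. Without the control arrays labelled male the activation change of Rb1cc1 was -0.23 and not called (adjusted p = 0.060).

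The PI3-kinase complex was the part of the pathway that activation left without a call, at 0 of 6 genes with changes between -0.21 and 0.26, and with emodin 4 of 6 rose, with changes between 0.043 and 1.19. With quantile normalization Becn1, Pik3c3 and Atg14 were called down with activation, each by 0.22 on the log2 scale. Without the control arrays labelled male, Becn1 (-0.23), Pik3c3 (-0.31) and Ambra1 (0.42) were called. So were Becn1 without control replicate 4 (-0.18), Ambra1 without control replicate 4 (0.35) or LPS_IFNg replicate 1 (0.35), and Pik3c3 without control replicate 3 (-0.26), LPS_IFNg replicate 3 (-0.24), LPS_IFNg_emodin replicate 4 (-0.21) or replicate 3 of both stimulated groups (-0.24, adjusted p = 0.0447). Scaled to the spike-ins, 1 of the 6 rose with emodin and 3 fell.

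Atg14, the subunit that directs the complex to the site of autophagosome formation, lay at 1.36, 1.29, 1.52 and 1.5 on the control arrays, at 1.05, 1.30, 1.29 and 1.22 on the LPS_IFNg arrays and at 2.36, 2.41, 2.31 and 2.55 with emodin. Every emodin array was above every other array, and the control and LPS_IFNg arrays overlapped. It rose by 1.19 ± 0.084 with emodin (2.29-fold, adjusted p = 1.54e-07), and by 0.49 ± 0.16 scaled to the spike-ins (adjusted p = 0.0175). With activation it changed by -0.20 ± 0.084 (adjusted p = 0.0508), and was called without control replicate 2 (-0.24), LPS_IFNg replicate 2 (-0.23) or LPS_IFNg_emodin replicate 4 (-0.20). Ambra1, a Beclin 1 partner that links the complex to ULK1, rose by 0.77 ± 0.12, which was 0.070 and not called when scaled to the spike-ins.

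In the main fit, the catalytic core of the complex passed the test in neither comparison. The lipid kinase Pik3c3 changed by 0.043 ± 0.090 (adjusted p = 0.686) and its partner Becn1 by 0.056 ± 0.072 (adjusted p = 0.499) with emodin. Both were called down, at -0.66 and -0.64, with spike-in scaling. With activation, Becn1 was called down with normexp (-0.21). Pik3c3 and Becn1 were also both called down with activation with array weights (-0.24 and -0.17) and with the percentile over detected probes (-0.33 and -0.24). Uvrag, the subunit that takes the place of Atg14 in endosomal complexes, rose by 0.22 ± 0.066, which was 0.12 and not called with quantile normalization, and -0.48 and called down when scaled to the spike-ins (adjusted p = 0.0148). Pik3r4, the regulatory kinase-like subunit, rose by 0.28 ± 0.10 (adjusted p = 0.0288), which was -0.42 and not called when scaled to the spike-ins. With no filter on dim probes, and so more genes to adjust over, its adjusted p was 0.0525. The call of Pik3r4 was lost without LPS_IFNg replicate 1 (0.18, adjusted p = 0.0669), without LPS_IFNg_emodin replicate 2 (0.27, adjusted p = 0.0629) or without LPS_IFNg_emodin replicate 4 (0.25, adjusted p = 0.0759).

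Among the membrane proteins, activation raised Wipi2 and Atg2a, and emodin raised Atg2b and Atg9a and lowered Wipi1. Scaled to the spike-ins 0 of 5 rose and 3 of 5 fell, where 66.6% of all genes fell. WIPI proteins bind the lipid made by the PI3-kinase, ATG2 proteins move lipid into the growing membrane, and ATG9 is a lipid scramblase carried on vesicles.

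Atg2b lay at -2.41, -2.48, -2.03 and -1.79 on the control arrays, at -2.09, -1.41, -1.55 and -1.68 on the LPS_IFNg arrays and at -0.95, -0.24, -0.10 and -0.71 with emodin. Replicates spread widely for this gene, with the highest standard deviation of all members in each group (0.33, 0.29 and 0.40), and the emodin arrays still lay above the rest. It rose by 1.18 ± 0.22 with emodin (adjusted p = 0.000432), and scaled to the spike-ins the change was 0.48 ± 0.25 and not called (adjusted p = 0.103). With activation it changed by 0.50 ± 0.22 (adjusted p = 0.0625), and was called without control replicate 4 (0.62), LPS_IFNg replicate 1 (0.63) or LPS_IFNg_emodin replicate 1 (0.50), and without the control arrays labelled male (0.76). Its relative Atg2a rose by 0.85 ± 0.13 with activation (adjusted p = 0.000111) and changed by 0.16 ± 0.13 with emodin, or by -0.54, called down, when scaled to the spike-ins.

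Wipi1 lay at 0.49, 0.17, 0.34 and 0.34 on the control arrays, at 0.51, 0.10, 0.29 and 0.44 on the LPS_IFNg arrays and at -0.35, -0.91, -1.13 and -0.49 with emodin. The control and LPS_IFNg arrays overlapped and the emodin arrays lay below both. Wipi1 fell by 1.06 on the log2 scale with emodin (SE 0.16, 2.08-fold, adjusted p = 9.45e-05), and it was the only member called down by at least 2-fold with emodin. Its other kept probe fell by 0.56, and scaled to the spike-ins Wipi1 changed by -1.76. Wipi2 rose by 0.34 ± 0.083 with activation and changed by 0.090 ± 0.083 with emodin, or by -0.61, called down, when scaled to the spike-ins.

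Atg9a rose by 0.34 ± 0.14 with emodin (adjusted p = 0.0438), a call that the removal of any LPS_IFNg_emodin array but replicate 4 ended, with values of 0.36, 0.27 and 0.29 without replicates 1, 2 and 3. It was also lost without LPS_IFNg replicate 1, 2 or 4 (0.29, 0.35 and 0.32), without control replicate 3 (adjusted p = 0.0524) without replicate 3 of both stimulated groups (adjusted p = 0.0873) and with no filter on dim probes (adjusted p = 0.0767). With spike-in scaling the change was -0.36 and not called.

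The conjugation enzymes split. ATG7 and ATG10 or ATG3 pass the ubiquitin-like proteins along, ATG12 is joined to ATG5, that pair with ATG16L1 places LC3 on the membrane, and the ATG4 proteases trim LC3 and take it off again. Of 9 tested genes, activation raised Atg16l1, Atg4d and Atg4b and lowered Atg7 and Atg3. With emodin Atg12, Atg3 and Atg4b rose and Atg4c, Atg4d, Atg5, Atg7 and Atg10 fell, and scaled to the spike-ins Atg12 alone rose and 6 fell.

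Atg12 lay at 5.12, 5.26, 5.05 and 4.96 on the control arrays, at 5.40, 5.25, 5.18 and 5.23 on the LPS_IFNg arrays and at 6.33, 6.29, 6.22 and 6.40 with emodin. The emodin arrays were the highest, without overlap. Atg12 rose by 1.05 ± 0.080 with emodin (adjusted p = 2.82e-07), by 1.53 at its other kept probe, and by 0.35 ± 0.13 when scaled to the spike-ins (adjusted p = 0.0338). Its change with activation was 0.17 ± 0.080 (adjusted p = 0.0844), and was called without control replicate 2 (0.22). Its partner Atg5 went the other way, from LPS_IFNg levels of 4.61, 4.36, 4.26 and 4.37 to 3.75, 3.76, 3.59 and 3.81, a fall of 0.67 on the log2 scale (SE 0.092, adjusted p = 3.75e-05).

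Atg16l1 lay at 1.17, 1.20, 1.04 and 1.10 on the control arrays, at 2.31, 2.35, 2.49 and 2.28 on the LPS_IFNg arrays and at 2.68, 2.40, 2.48 and 2.61 with emodin. All 8 stimulated arrays stood above the controls, and the stimulated groups overlapped. It rose by 1.23 ± 0.079 with activation (2.34-fold, adjusted p = 5.27e-08) and changed by 0.18 ± 0.079 with emodin (adjusted p = 0.0552), a value that was called without LPS_IFNg replicate 3 (0.23), without LPS_IFNg_emodin replicate 2 (0.23) and without replicate 3 of both groups (0.25), and that was -0.52 ± 0.13 scaled to the spike-ins.

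Atg7, the enzyme that activates both ubiquitin-like proteins, fell by 0.98 on the log2 scale with activation (SE 0.11, adjusted p = 8.21e-06) and by 0.27 with emodin (SE 0.11, adjusted p = 0.0431). Its other kept probe fell by 0.29 with activation and rose by 0.79 ± 0.077 with emodin, so the direction with emodin rested on the probe. The emodin call at the first probe was also lost without control replicate 1 or 3 (adjusted p = 0.055 for each), without LPS_IFNg replicate 2, 3 or 4 (-0.23, -0.26 and -0.25), without LPS_IFNg_emodin replicate 1 or 4 (-0.20 and -0.25) without replicate 3 of both stimulated groups (-0.31, adjusted p = 0.0654) and with no filter on dim probes (adjusted p = 0.0756).

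Atg3, which hands LC3 to its lipid, fell by 0.41 on the log2 scale with activation and rose by 0.77 ± 0.089 with emodin, which was 0.072 and not called when scaled to the spike-ins. Atg10, which serves ATG12 in the same way, fell by 0.62 on the log2 scale with emodin (SE 0.15), and its other kept probe by 1.22. Among the proteases, Atg4b rose by 0.41 ± 0.082 and by 0.67 ± 0.082, Atg4d rose by 0.95 ± 0.074 with activation and fell by 0.46 on the log2 scale with emodin, and Atg4c fell by 0.25 with emodin. Scaled to the spike-ins the changes were -0.032 for Atg4b, -1.16 for Atg4d and -0.95 for Atg4c.

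The LC3 and GABARAP family was lowered or left uncalled by activation, with 0 rising and 2 falling of 5, and 3 rose and 1 fell with emodin. With quantile normalization all 5 were called down with activation. Scaled to the spike-ins, 0 rose and 2 fell with emodin.

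Map1lc3a (LC3A) lay at 2.37, 2.42, 2.41 and 2.08 on the control arrays, at 1.37, 1.20, 1.20 and 1.34 on the LPS_IFNg arrays and at 2.31, 2.13, 1.99 and 2.46 with emodin. The LPS_IFNg arrays formed the low group, and the control and emodin arrays overlapped. It fell by 1.04 on the log2 scale with activation (SE 0.11, 2.06-fold, adjusted p = 4.41e-06) and rose by 0.95 ± 0.11 with emodin (adjusted p = 9.82e-06), which was 0.25 ± 0.16 and not called when scaled to the spike-ins (adjusted p = 0.173).

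Map1lc3b (LC3B), the protein most used as an autophagosome marker, lay at 5.60, 5.66, 5.66 and 5.52 on the control arrays, at 5.08, 5.07, 5.14 and 5.06 on the LPS_IFNg arrays and at 4.99, 5.13, 5.03 and 5.27 with emodin. The controls were higher than all stimulated arrays, which overlapped with each other. It fell by 0.52 on the log2 scale with activation (SE 0.072, adjusted p = 4.30e-05) and changed by 0.019 ± 0.072 with emodin (adjusted p = 0.82), and scaled to the spike-ins it changed by -0.68 ± 0.15.

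Gabarap lay at 8.17, 8.37, 8.22 and 7.96 on the control arrays, at 8.25, 8.09, 8.13 and 8.03 on the LPS_IFNg arrays and at 8.90, 8.67, 8.64 and 8.70 with emodin. Its relative Gabarapl1 lay at 8.31, 8.23, 8.20 and 8.13, then at 8.30, 8.17, 8.04 and 8.16, and with emodin at 8.92, 8.86, 8.81 and 8.87. For both genes the emodin arrays stood above the others, which overlapped. The changes with emodin were 0.60 ± 0.095 for Gabarap (adjusted p = 0.000127) and 0.69 ± 0.070 for Gabarapl1 (adjusted p = 2.96e-06), and scaled to the spike-ins they were -0.099 and -0.0067, neither of them called.

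Gabarapl2 (GATE-16) lay at 5.53, 5.55, 5.34 and 5.12 on the control arrays, at 5.34, 5.26, 5.34 and 5.25 on the LPS_IFNg arrays and at 5.06, 4.90, 5.02 and 5.01 with emodin. The emodin arrays were the lowest, just below the lowest control array. It fell by 0.30 on the log2 scale with emodin (SE 0.092, adjusted p = 0.0116), against the direction of Gabarap and Gabarapl1, and changed by -1.0 ± 0.12 scaled to the spike-ins. With activation it changed by -0.091 (adjusted p = 0.399), and was called without control replicate 4 (-0.18) and without the control arrays labelled male (-0.25).

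**Figure D2:**
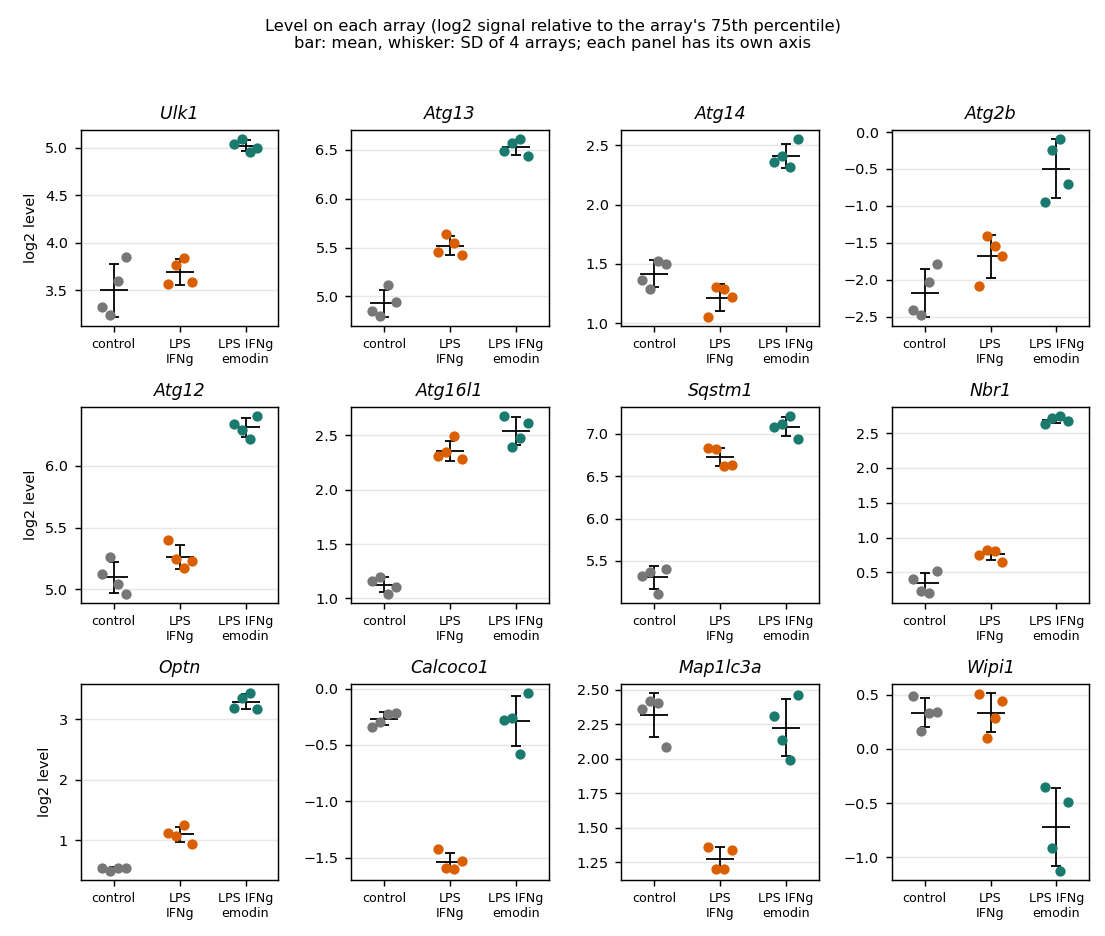
Level of the 12 autophagy genes that changed at least 2-fold in either comparison, on each of the 12 arrays, as log2 signal relative to the 75th percentile of the array; points are arrays, bars the mean and whiskers the SD of 4 arrays, and each panel has its own axis. Map1lc3a and Calcoco1 are low on the LPS_IFNg arrays only, Atg16l1 and Sqstm1 are high on all 8 stimulated arrays, and Optn and Nbr1 are highest with emodin.

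The cargo receptors were the group in which every tested member rose with emodin, 5 of 5 with a median change of 1.25. With activation 3 rose and 1 fell, with a median of 0.42. Scaled to the spike-ins, Optn, Nbr1 and Calcoco1 rose with emodin and Sqstm1 fell. These proteins bind ubiquitin or another tag on the cargo and LC3 on the membrane.

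Optn, optineurin, a receptor for damaged mitochondria and bacteria, lay at 0.55, 0.49, 0.54 and 0.55 on the control arrays, at 1.12, 1.08, 1.24 and 0.94 on the LPS_IFNg arrays and at 3.19, 3.35, 3.43 and 3.17 with emodin. The groups did not overlap and rose in that order. Optn rose by 0.57 ± 0.081 with activation (adjusted p = 5.76e-05) and by a further 2.19 ± 0.081 with emodin (4.56-fold, adjusted p = 1.25e-09), the largest change of any member in this comparison, and by 1.49 ± 0.13 scaled to the spike-ins (adjusted p = 2.35e-06).

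Nbr1, a receptor for ubiquitinated aggregates and peroxisomes, lay at 0.40, 0.24, 0.20 and 0.52 on the control arrays, at 0.74, 0.83, 0.81 and 0.64 on the LPS_IFNg arrays and at 2.64, 2.71, 2.74 and 2.67 with emodin. Its groups were ordered in the same way without overlap. It rose by 0.42 ± 0.080 (adjusted p = 0.000626) and then by 1.93 ± 0.080 (3.82-fold, adjusted p = 2.99e-09), and by 1.23 ± 0.13 scaled to the spike-ins.

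Sqstm1, p62, the receptor that also gathers ubiquitinated protein into bodies and is itself degraded by autophagy, lay at 5.33, 5.38, 5.11 and 5.40 on the control arrays, at 6.83, 6.82, 6.62 and 6.64 on the LPS_IFNg arrays and at 7.08, 7.11, 7.21 and 6.94 with emodin. Stimulated arrays stood well above the controls, and the emodin arrays narrowly above the LPS_IFNg arrays. The rise with activation was 1.42 ± 0.089 (2.68-fold, adjusted p = 4.08e-08), the largest of any member in that comparison. The rise with emodin was 0.36 ± 0.089 (adjusted p = 0.00315); it was 0.14 and not called with quantile normalization (adjusted p = 0.182) and -0.34 and called down when scaled to the spike-ins (adjusted p = 0.0312).

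Calcoco1, a receptor for endoplasmic reticulum, lay at -0.34, -0.29, -0.22 and -0.22 on the control arrays, at -1.43, -1.59, -1.60 and -1.53 on the LPS_IFNg arrays and at -0.28, -0.26, -0.58 and -0.04 with emodin. As for Map1lc3a, the LPS_IFNg arrays were the low group and the others overlapped. It fell by 1.27 on the log2 scale with activation (SE 0.10, adjusted p = 3.42e-07) and rose by 1.25 ± 0.10 with emodin (adjusted p = 4.51e-07), by 0.55 ± 0.17 scaled to the spike-ins (adjusted p = 0.0118). Tax1bp1, which also restrains NF-kB signalling, changed by 0.099 ± 0.058 with activation (adjusted p = 0.15) and rose by 0.55 ± 0.058 with emodin, which was -0.15 and not called when scaled to the spike-ins.

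The windows upstream of Sqstm1 and Optn, the members with the largest rise in each comparison, are shown because both hold a GC box (GGGCGG on either strand, in capitals). They are the 250 bases before the annotated start, from RefSeq on GRCm38.p6, 5′ to 3′ on the strand of the gene, at chr11:50210821-50211070 on the minus strand and chr2:5064118-5064367 on the minus strand. The capitals mark 3 boxes for Sqstm1 and 1 for Optn.
Sqstm1: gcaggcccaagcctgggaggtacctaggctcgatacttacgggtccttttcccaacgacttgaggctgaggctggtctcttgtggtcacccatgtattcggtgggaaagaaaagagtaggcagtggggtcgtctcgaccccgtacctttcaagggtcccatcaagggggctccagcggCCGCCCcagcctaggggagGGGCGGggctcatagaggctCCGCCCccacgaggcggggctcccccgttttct
Optn: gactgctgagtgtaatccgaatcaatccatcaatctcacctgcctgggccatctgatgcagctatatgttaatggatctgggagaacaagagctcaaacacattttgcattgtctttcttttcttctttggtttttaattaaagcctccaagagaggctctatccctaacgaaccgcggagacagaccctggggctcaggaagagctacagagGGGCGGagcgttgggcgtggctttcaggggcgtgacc
Windows of 31 of the 38 members were matched, 35 windows in all. A GC box was found for 20 members, in 57.14% of these 35 windows and in 32.74% of all 32851 windows. The 20 held members that rose with emodin, such as Ulk1 and Atg14, and members that fell, such as Wipi1 and Atg10. The interferon-stimulated element core was in the windows of 0 of the 31 members and 2.98% of all windows. The gamma-activated core TTCNNNGAA was found for 5 members (Wipi1, Gabarap, Gabarapl1, Nbr1 and Stx17), in 14.29% of the 35 windows against 7.02% of all. Both strands were searched, and a match describes letters only.

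The last step, fusion with the lysosome, was covered by a pair of members. Stx17, the autophagosomal SNARE, fell by 0.67 on the log2 scale with activation (SE 0.12, adjusted p = 0.000324), by 1.13 and 0.34 at its other kept probes, and changed by -0.058 ± 0.12 with emodin, or by -0.76, called down, when scaled to the spike-ins. The tether Epg5 rose by 0.63 ± 0.14 with activation and by 0.67 ± 0.14 with emodin, which was -0.027 scaled to the spike-ins.

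Side by side, 5 members fell with activation and rose with emodin, namely Ulk2, Atg101, Atg3, Map1lc3a and Calcoco1, and 6 rose in both, namely Atg13, Atg4b, Sqstm1, Nbr1, Optn and Epg5. A further 11 were called with emodin only in the upward direction and 5 only in the downward direction, and Becn1 and Pik3c3 were called in neither. The LPS_IFNg arrays enter both comparisons, so these calls are not independent of each other. Ulk2 rose with emodin at the probe used and not at its other kept probe (-0.026). Of the 5 that fell and then rose, only Calcoco1 rose with emodin when scaled to the spike-ins, and Atg101 fell. Of the 6 that rose in both, Optn and Nbr1 still rose with that scaling and Sqstm1 fell. Against control, the LPS_IFNg_emodin arrays had 20 members up and 9 down, where 78.2% of all genes were called (39% up and 39.2% down). With quantile normalization and with the deposited value table these counts were 16 up and 10 down, and with the percentile over detected probes 20 up and 13 down. Groups did not overlap for 29 members, and for 72.3% of all genes, and 12 rises and 2 falls were at least 2-fold, as were the changes of 38.5% of all genes. In that comparison Optn was 2.76 ± 0.081 higher, Nbr1 2.35 ± 0.080 and Sqstm1 1.78 ± 0.089, while Calcoco1 differed by -0.021 ± 0.10, Ulk2 by 0.0025 ± 0.053 and Map1lc3a by -0.095 ± 0.11, none of these last 3 being called. The other kept probe of Ulk2 differed by -0.72 ± 0.082 from control (limma adjusted p = 6.3e-06), so its return to the control level held for the probe used only.

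**Figure D3:**
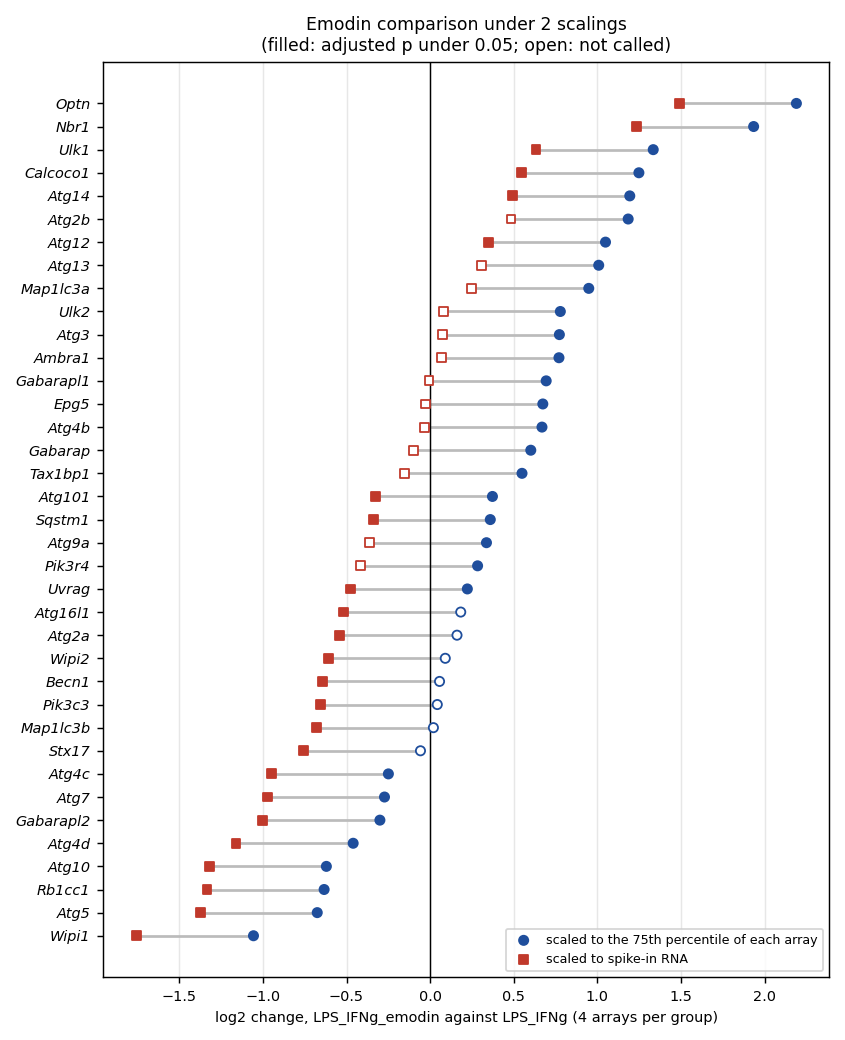
Log2 change of the 37 tested autophagy genes in LPS_IFNg_emodin against LPS_IFNg with each array scaled to its 75th percentile (circles) or to 8 spike-in RNAs (squares), 4 arrays per group; filled symbols have a limma adjusted p under 0.05. Scaling to the spike-ins moves every gene down by the same amount, which leaves 6 genes called up, from Optn at 1.49 to Atg12 at 0.35, and 18 called down.

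Cell type markers moved in both comparisons. With activation 4 of 9 macrophage markers rose and 4 fell, 2 of 7 tested neutrophil markers rose and 4 fell, 3 of 10 tested mesothelial and fibroblast markers rose and 4 fell, and 0 of 3 tested B cell markers were called, where 69% of all genes were. With emodin, where 71.8% of all genes were called, the counts were as follows. Of 9 macrophage markers 2 rose and 6 fell, of 7 tested neutrophil markers 5 rose and 2 fell, of 10 tested mesothelial and fibroblast markers 0 rose and 5 fell, and all 3 tested B cell markers fell. Of the T and NK cell markers 1 was tested, which fell with activation and rose with emodin, and of 3 tested mast cell and eosinophil markers 1 fell with activation and 1 rose with emodin. The summed signal of the mesothelial and fibroblast markers, as log2 relative to the 75th percentile, was 4.35 to 6.47 on the control arrays, 6.38 to 7.33 on the LPS_IFNg arrays and 3.67 to 5.37 on the LPS_IFNg_emodin arrays, with 10 to 11, 8 and 5 to 8 of 11 markers well above background. That of the B cell markers was 0.038 to 1.24, -0.60 to 1.05 and -2.77 to -1.51, with at most 4, 3 and 2 of 5 markers above background, and that of the macrophage markers 9.35 to 9.37, 8.81 to 9.02 and 9.06 to 9.33. The neutrophil markers summed to 4.86 to 5.39, 4.70 to 4.96 and 4.98 to 5.28, with 7 to 8, 4 and 6 to 7 of 9 above background. Those of T and NK cells summed to 1.79 to 1.93, 0.55 to 1.11 and 1.18 to 1.41, and those of mast cells and eosinophils to 0.57 to 1.04, -0.67 to 0.29 and -0.49 to 0.49, with Epx and Prg2 above background on 0 of 12 arrays. The part of these cells in the results was not tested, and fewer cells of a type cannot be told apart from less RNA per cell in such bulk samples.

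Genes next to the core pathway were read from 6 lists chosen by function. Their counts stand beside the same shares over all genes, 33.8% up and 35.2% down with activation and 35.1% and 36.8% with emodin. Scaled to the spike-ins, 8.6% of all genes rose and 66.6% fell with emodin. Of 10 other core genes of autophagosome elongation, 7 rose and 0 fell with emodin, at a median of 0.55, and activation raised 3 and lowered 3, or 3 and 5 with quantile normalization. Atg16l2, a paralog of Atg16l1, rose by 1.60 ± 0.087 (adjusted p = 2.08e-08) and Sh3glb1, a membrane-bending partner of Uvrag, by 1.59 ± 0.074, after a rise of 0.80 ± 0.074 with activation. With spike-in scaling both still rose, by 0.90 and 0.89, while 2 of the 10 rose and 3 fell. Tecpr1, a tether of autophagosome and lysosome, fell by 1.41 on the log2 scale with activation (SE 0.14).

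Of 13 further genes of lysosome fusion, 3 rose and 1 fell with activation, 7 rose and 3 fell with emodin, and 1 rose and 8 fell when scaled to the spike-ins. With quantile normalization 3 rose and 6 fell with activation, and 4 rose and 3 fell with emodin at a median of 0.035 in place of 0.27; normexp gave 4 up and 4 down with emodin. Vps11, a subunit of the HOPS tethering complex, rose by 1.66 ± 0.089 (adjusted p = 1.80e-08), and by 0.96 scaled to the spike-ins. The SNARE Vamp8 and the HOPS subunit Vps16 fell by 0.57 and 0.41 on the log2 scale, and Snap29, the SNARE partner of Stx17, rose by 0.51 ± 0.098, which was -0.19 and not called when scaled to the spike-ins.

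Of 13 receptors and kinases of mitophagy and endoplasmic reticulum autophagy, activation raised 4 and lowered 6, and emodin raised 7 and lowered 2, or 0 and 7 when scaled to the spike-ins. The mitophagy receptor Bnip3 rose by 3.64 ± 0.17 with activation, while Pink1, a kinase that marks damaged mitochondria, fell by 1.56 on the log2 scale (SE 0.078). With emodin Pink1 rose by 0.73 ± 0.078, or changed by 0.027 when scaled to the spike-ins, and Bnip3 changed by -0.11 ± 0.17 (adjusted p = 0.577).

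Of 18 genes of nutrient sensing, activation raised 6 and lowered 7, and emodin raised 6 and lowered 4, and 1 and 14 when scaled to the spike-ins. Prkaa1, a catalytic subunit of the energy sensor AMPK, lay at 2.84, 2.73, 2.69 and 2.73 on the control arrays, at 2.21, 2.22, 2.15 and 2.27 on the LPS_IFNg arrays and at -0.02, -0.01, -0.21 and 0.07 with emodin. The groups did not overlap, and the emodin arrays were far the lowest. Prkaa1 fell by 0.53 on the log2 scale with activation and by 2.26 with emodin (SE 0.072, adjusted p = 5.17e-10), the largest fall in the list among genes detected throughout. Flcn (folliculin), which acts on the Rag GTPases, fell by 0.72 on the log2 scale with activation and rose by 1.39 ± 0.098 with emodin (0.69 scaled to the spike-ins), and Ddit4, an inhibitor of mTORC1, rose by 3.27 ± 0.20 with activation. Deptor, another mTOR inhibitor, was well above background on 4 control, 2 LPS_IFNg and 0 LPS_IFNg_emodin arrays, so neither size nor p is given for its lower signal in the stimulated groups. It is among the falls counted for this list in both comparisons, and the emodin comparison sets signals near background against each other.

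Of 12 transcription factors, activation raised 5 and lowered 2, and emodin raised 5 and lowered 5, or 2 and 8 when scaled to the spike-ins and 4 and 6 with quantile normalization. Tfeb, the activator of lysosome and autophagy genes, lay at 2.22, 2.05, 2.25 and 2.14 on the control arrays, at 0.63, 0.54, 0.41 and 0.53 on the LPS_IFNg arrays and at 2.35, 2.30, 2.32 and 2.30 with emodin. The LPS_IFNg arrays were the low group, and the emodin arrays lay just above the controls. Tfeb fell by 1.64 on the log2 scale with activation (SE 0.068, adjusted p = 1.20e-09) and rose by 1.79 ± 0.068 with emodin (adjusted p = 1.42e-09), and by 1.09 scaled to the spike-ins. Its relative Mitf fell by 1.04 on the log2 scale with emodin, the stress factor Ddit3 (CHOP) rose by 1.20 ± 0.12 (0.50 scaled to the spike-ins), and Zkscan3, a repressor of autophagy genes, fell by 0.54 on the log2 scale with activation and rose by 0.60 with emodin, or changed by -0.10 when scaled to the spike-ins. Hif1a, the oxygen-regulated factor, rose by 2.46 ± 0.071 with activation and fell by 0.40 on the log2 scale with emodin.

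TFEB and its relatives bind the E-box core CACGTG. In the windows described above it was found for 3 of 31 members, in 8.57% of member windows and 6.02% of all windows. All 3 encode conjugation enzymes, and they moved differently with emodin, Atg3 upward, Atg5 downward and Atg7 according to the probe. The windows are at chr16:45158579-45158828, chr10:44268089-44268338 and chr6:114670846-114671095, all on the plus strand, and the capitals mark CACGTG.
Atg3: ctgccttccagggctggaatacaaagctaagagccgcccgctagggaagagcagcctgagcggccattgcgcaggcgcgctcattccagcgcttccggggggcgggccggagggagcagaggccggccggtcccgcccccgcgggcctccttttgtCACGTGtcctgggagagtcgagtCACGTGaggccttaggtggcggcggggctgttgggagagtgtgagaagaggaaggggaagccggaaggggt
Atg5: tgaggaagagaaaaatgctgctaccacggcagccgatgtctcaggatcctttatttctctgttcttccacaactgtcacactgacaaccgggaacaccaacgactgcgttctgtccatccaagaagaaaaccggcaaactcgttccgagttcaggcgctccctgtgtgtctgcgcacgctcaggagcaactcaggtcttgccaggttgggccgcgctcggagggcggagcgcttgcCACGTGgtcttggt
Atg7: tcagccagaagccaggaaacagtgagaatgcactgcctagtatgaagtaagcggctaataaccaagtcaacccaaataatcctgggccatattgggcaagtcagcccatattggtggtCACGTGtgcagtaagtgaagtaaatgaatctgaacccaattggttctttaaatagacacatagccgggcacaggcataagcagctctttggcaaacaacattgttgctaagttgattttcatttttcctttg
The antioxidant response core TGACNNNGC was found for Ulk2, Atg13 and Tax1bp1, in 8.57% of member windows and 10.16% of all, and the cAMP response core TGACGTCA for 0 of 31 members and in 1.55% of all windows.

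Of 10 stress-induced regulators, activation raised 4 and lowered 2, and emodin raised 5 and lowered 4, or 2 and 6 when scaled to the spike-ins and 3 and 4 with quantile normalization. Trp53inp1, a p53 target that binds LC3, lay at 1.98, 2.03, 2.01 and 2.00 on the control arrays, at 0.79, 0.85, 1.14 and 0.82 on the LPS_IFNg arrays and at 2.89, 2.96, 2.81 and 3.03 with emodin. The groups did not overlap, with the LPS_IFNg arrays lowest and the emodin arrays highest. It fell by 1.10 on the log2 scale with activation (SE 0.083) and rose by 2.02 ± 0.083 with emodin (adjusted p = 2.84e-09), and by 1.32 scaled to the spike-ins, and its relative Trp53inp2 fell by 0.84 and rose by 1.06 (0.36 scaled to the spike-ins). Dram1, a lysosomal p53 target, went the other way, with a rise of 2.12 ± 0.066 and a fall of 1.23 on the log2 scale, and so did Chac1, with a rise of 1.26 ± 0.19 and a fall of 1.17. Irgm1, the interferon-induced GTPase of microbial autophagy, rose by 4.05 ± 0.071 with activation and by 0.46 ± 0.071 with emodin, the second of which was 0.074 with quantile normalization and -0.24 scaled to the spike-ins and was called in neither.

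**Figure D4:**
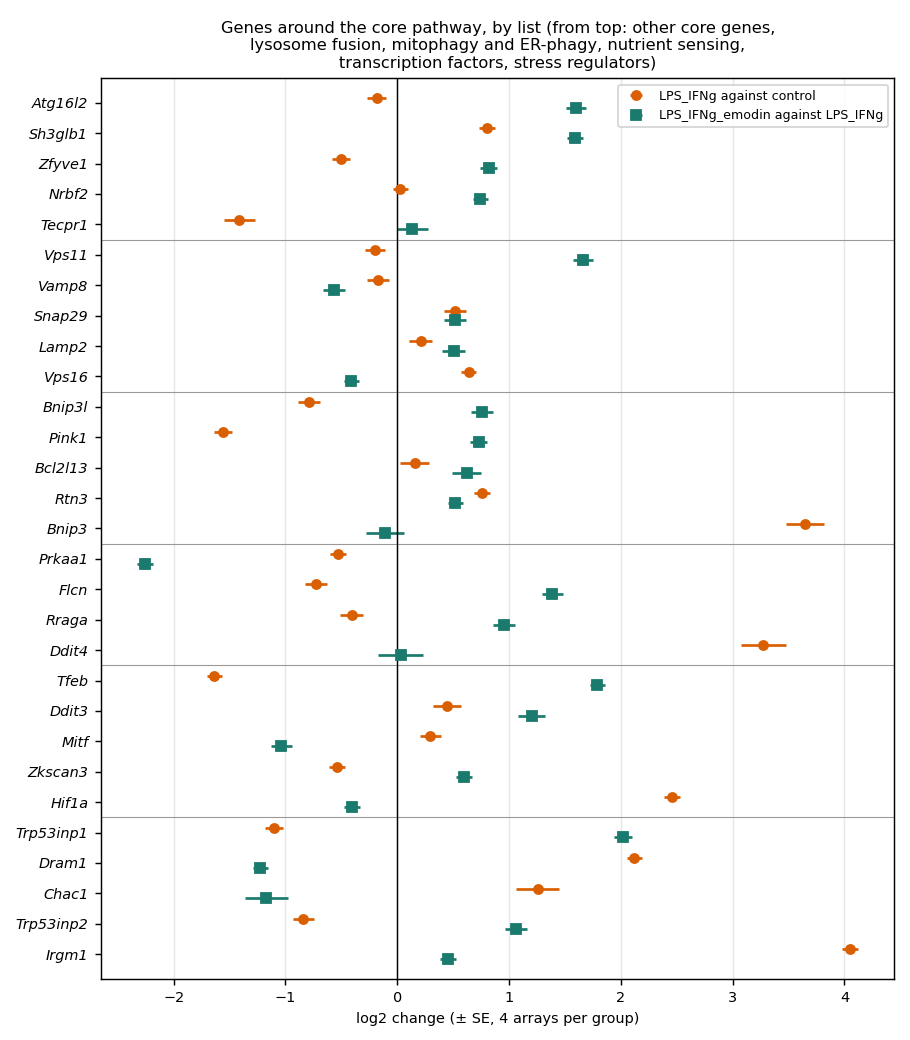
Log2 change of genes around the core pathway in LPS_IFNg against control (circles) and LPS_IFNg_emodin against LPS_IFNg (squares), scaled to the 75th percentile of each array, with the SE of the fit over 4 arrays per group; horizontal lines separate the 6 lists and Deptor is left out because it was at background with emodin. Tfeb, Trp53inp1, Flcn and Pink1 lie left of 0 with activation and right of 0 with emodin, Dram1 and Chac1 do the reverse, and Prkaa1 is the lowest value with emodin.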

How the data were processed

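Agilent one-colour arrays were read from 12 samples, 4 per group. Per the submitters' processing notes, Agilent Feature Extraction 10.7.3.1 was used, and per the file headers its processed signal intensity is corrected for background. The deposited value table holds log2 values. Set against the scanner values, they matched quantile-normalized values centred on each probe's median, and how the authors made them is not given in the sources used here. Its column medians were -0.0314 to 0.0416. In 3 control columns it followed another control array than the one named (columns 1, 3 and 4 followed arrays 4, 1 and 3), so that means over the group do not change, and it served as an alternative only.

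For the main values, log2 of the processed signal was taken minus each array's 75th percentile. Control spots and outlier flags were left out. Probes that every array of some group (4 of 4) flagged as well above background were kept (27375 of 55681 probes), and named through unversioned RefSeq accessions in a GRCm38.p6 gene table, used for names only (27509 probes named, 17165 of them kept). The probe with the highest mean over 12 arrays stood for a gene (3353 genes had several). limma 3.58.1 in R 4.3.3 (lmFit, contrasts, eBayes) was fitted to 12 arrays, with 9 residual and 2.5 prior degrees of freedom. P-values are two-sided and Benjamini-Hochberg adjusted over 13168 genes, and every adjusted p in the text comes from limma. The number of arrays limits the precision. The code was tested on simulated data.

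Members and gene lists were chosen with earlier results of these data known. Members described array by array are those called with at least a 2-fold change in either of the first comparisons, and the LC3 and GABARAP genes; from each of 6 lists, up to 4 genes with the largest called change with emodin and up to 2 with activation were named. Others are given by counts or by their changes, and 1 gene that the rule names is not reported here. Same-numbered LPS_IFNg and LPS_IFNg_emodin arrays deviated together (correlations of 0.23, 0.28, 0.16 and 0.15), against -0.244 to 0.048 for differently numbered arrays of these groups. Same-numbered control and LPS_IFNg arrays gave 0.14, -0.068, -0.016 and -0.14. Control replicate 4 and LPS_IFNg replicate 2, which differ in number, gave 0.315. Replicate 3 of both stimulated groups also shared the Ddx3y and Eif2s3y signal and the lack of Xist signal. The numbers may thus pair the stimulated arrays, but correlations of this size and a match at 1 number do not establish it. Alternatives covered background correction, scaling, filter, choice of probe, value table, array weights, block and arrays left out. Background correction by normexp used the median signals and median local backgrounds with an offset of 50, in place of the mean signals planned.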

Additional observations from a re-analysis of the deposited data

Results flagged for a closer look

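Of 111 groups of 4 arrays (37 genes in 3 groups), 4 held an array whose gap to its nearest neighbour exceeded Dixon's 95% critical share of the group's range, where chance gives about 1 in 20. Ulk2 was 1.21 on LPS_IFNg replicate 1 and 1.13 to 1.14 on the others. Atg4b was 1.15 on the same array and 0.95 to 0.98 on the others. Map1lc3a was 2.08 on control replicate 4 and 2.37 to 2.42 on the others. Tax1bp1 was 5.61 on control replicate 2 and 5.48 to 5.49 on the others. The values are log2 levels relative to the 75th percentile of the array, and leaving out each of these arrays in turn left the calls of these 4 genes as they were.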

How the results depend on the processing

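Leaving out 1 array at a time gave 19 to 24 members called with activation (10 to 13 up, 9 to 11 down), 28 to 30 in emodin against LPS_IFNg (20 to 23 up, 7 to 8 down) and a median of 0.358 to 0.392 in emodin against control. Uncalled changes that crossed 0 in this way were, with activation, Wipi1 (-0.056 to 0.080) and Gabarap (-0.13 to 0.0086) and, with emodin, Pik3c3 (-0.025 to 0.088), Map1lc3b (-0.036 to 0.058) and Stx17 (-0.13 to 0.038). The replicate block over 12 arrays called Atg2b with activation (0.50, adjusted p = 0.0317) and lost Atg9a with emodin (0.34, adjusted p = 0.056). Over the 8 stimulated arrays, whose numbers may pair them, the block changed no call of a member. The cause of the changes below was not tested.

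With activation, the median moved from -0.027 to 0.055 with normexp, to -0.13 with quantile normalization and the value table, and to -0.15 with the percentile over detected probes. Calls downward became 16, 16 and 15 in the last 3. The median of all genes was -0.039, and -0.13 with quantile normalization, -0.16 with that percentile and 0.22 with no filter. Signs turned for Atg4c (0.032), Atg10 (0.030), Gabarapl1 (0.060) and Gabarapl2 (0.028) with normexp. They turned for Uvrag (-0.042), Atg5 (-0.043), Atg12 (-0.042) and Tax1bp1 (-0.13) with quantile normalization and for Uvrag (-0.040), Atg5 (-0.041), Atg12 (-0.042) and Tax1bp1 (-0.13) with the value table. The percentile over detected probes turned Wipi1 (-0.12), Atg5 (-0.0028) and Tax1bp1 (-0.020), the mean of probes Atg4c (0.010), array weights Wipi1 (-0.033), and leaving out the control arrays labelled male Atg9a (0.037).

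With emodin, the median moved from 0.36 to 0.26 with quantile normalization and the value table, to -0.34 scaled to 8 spike-ins and to -0.21 scaled to every spike-in. Calls were 6 up and 18 down with 8 spike-ins and 9 up and 16 down with every spike-in. Scaling to 8 spike-ins turned Atg101 (-0.33), Becn1 (-0.64), Pik3c3 (-0.66), Pik3r4 (-0.42), Uvrag (-0.48), Wipi2 (-0.61), Atg2a (-0.54), Atg9a (-0.36), Atg4b (-0.032), Atg16l1 (-0.52), Map1lc3b (-0.68), Gabarap (-0.099), Gabarapl1 (-0.0067), Sqstm1 (-0.34), Tax1bp1 (-0.15) and Epg5 (-0.027). Scaling to every spike-in turned Atg101 (-0.19), Becn1 (-0.51), Pik3c3 (-0.52), Pik3r4 (-0.28), Uvrag (-0.34), Wipi2 (-0.47), Atg2a (-0.40), Atg9a (-0.23), Atg16l1 (-0.38), Map1lc3b (-0.55), Sqstm1 (-0.21) and Tax1bp1 (-0.016). Signs also turned for Becn1 (-0.15) and Map1lc3b (-0.082) with normexp, Map1lc3b with quantile normalization (-0.083) and the value table (-0.089), and Pik3c3 (-0.011) and Map1lc3b (-0.034) with the percentile over detected probes. The mean of probes turned Atg7 (0.26, adjusted p = 0.011) and Stx17 (0.059). Against control, the emodin median of 0.36 became 0.39 with normexp, 0.11 with quantile normalization and the value table, 0.19 with the percentile over detected probes and 0.40 without the control arrays labelled male. The 8-array block, the single probes, the scaling to every spike-in and the removal of the male-labelled controls were chosen after seeing the data.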
